A study of Mus musculus with 7 samples.

Results

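The genes described here are 10 mouse brakes on MAP kinase signalling: the dual-specificity phosphatases Dusp1, Dusp2, Dusp4, Dusp5, Dusp6, Dusp10 and Dusp16, the Sprouty genes Spry1 and Spry2, and Errfi1. Their members on the array were the probe sets that name only one of these genes in the platform annotation, 14 of the 45101 probe sets. They were measured in B cells from the spleens of 4 wild-type FVB mice and 3 FVB mice carrying the Eµ-miR-155 transgene, with 1 array per mouse. The Eµ enhancer belongs to the antibody heavy chain genes and directs miR-155 to B-lineage cells. B cells were taken with a magnetic isolation kit. The labels give no age and no sex, and do not say whether the transgenic mice come from 1 founder line. The genes were chosen by family and with measured values in view, the transgenic minus wild-type differences of these arrays, in which Errfi1 and Dusp4 were among the larger decreases. Those differences are therefore a description, and no test result is read from them.

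MAP kinases are switched on by phosphorylation of a threonine and a tyrosine, and the dual-specificity phosphatases remove both phosphates. Many of these phosphatases are induced by the kinases they switch off, which makes a feedback loop. In B cells the antigen receptor activates the ERK, JNK and p38 kinases, and Dusp2 was first described in activated lymphocytes. Sprouty proteins damp Ras and ERK signalling below growth factor receptors, and ERRFI1 binds and inhibits the kinase domains of the EGF receptor family.

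The transgene expresses miR-155, and its main mature strand is shown because its seed defines the messenger RNAs it can pair with. RefSeq (GRCm38.p6) places the endogenous copy at chr16:84714143-84714165 on the plus strand, and capitals mark the seed, bases 2 to 8.
mmu-miR-155-5p: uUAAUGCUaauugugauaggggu
Transcript sequences were not used here, so seed sites in the members were not searched.

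All levels are on the log2 scale of the deposited GCRMA table. Its lowest value is 2.17, and levels of 4 or less are taken as not above background. Between 46.0% and 47.9% of probe sets were above 4 on each array. The B cell markers were bright on every array. The 9 of 10 that could be measured had a mean of 13.38 to 13.47 in wild type and 12.79 to 13.30 in transgenic arrays, and 0 of them passed in the comparison of the groups (median difference -0.27). Markers of other cells were higher in the transgenic isolates. The mean of 10 granulocyte markers was 2.71 to 3.54 in wild type and 7.39 to 8.63 in transgenic arrays, with 7 of the 10 at or under 4 on every wild-type array. The T cell mean of 8 markers was 2.75 to 2.81 in wild type, 3.04 and 3.21 on transgenic replicates 1 and 2 and 7.53 on replicate 3. The mean of 9 markers of dividing cells was 5.48 to 6.89 in wild type and 8.29 to 9.96 in transgenic arrays. In such isolates, fewer cells of a type and less RNA per cell cannot be told apart. Xist and the Y-linked Eif2s3y mark wild-type replicates 3 and 4 as male and the other 5 mice as female, so sex is partly confounded with the transgene.

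Of the 10 genes, 8 were above background on at least 3 arrays and could be tested, through 10 of their 14 probe sets. Spry1, Spry2 and the second probe set of Dusp10 (1417163_at) were not above background on any array. Spry1 was at 2.17 on 6 arrays and at 3.67 on transgenic replicate 3. The brighter Spry2 probe set (1436584_at) was at 2.17 on all 4 wild-type arrays and at 2.25, 2.19 and 2.50 on the transgenic arrays. The other (1421656_at) was at 2.17 on all 7. No fold is given for the Sprouty genes, since both groups lie under background.

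Among the 8 tested genes, each by its brightest probe set, Errfi1 and Dusp4 were lower in every transgenic array than in any wild-type array. Dusp10 was higher, and the other 5 overlapped. By gene, with the probe set of highest mean, groups did not overlap for 3 of the 8, against 29.9% of all 9517 tested genes. Since the listing used this contrast, nothing is read from this count. The median difference was -0.17 over the 8 genes and 0.00 over all tested genes.

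**Figure D1:**
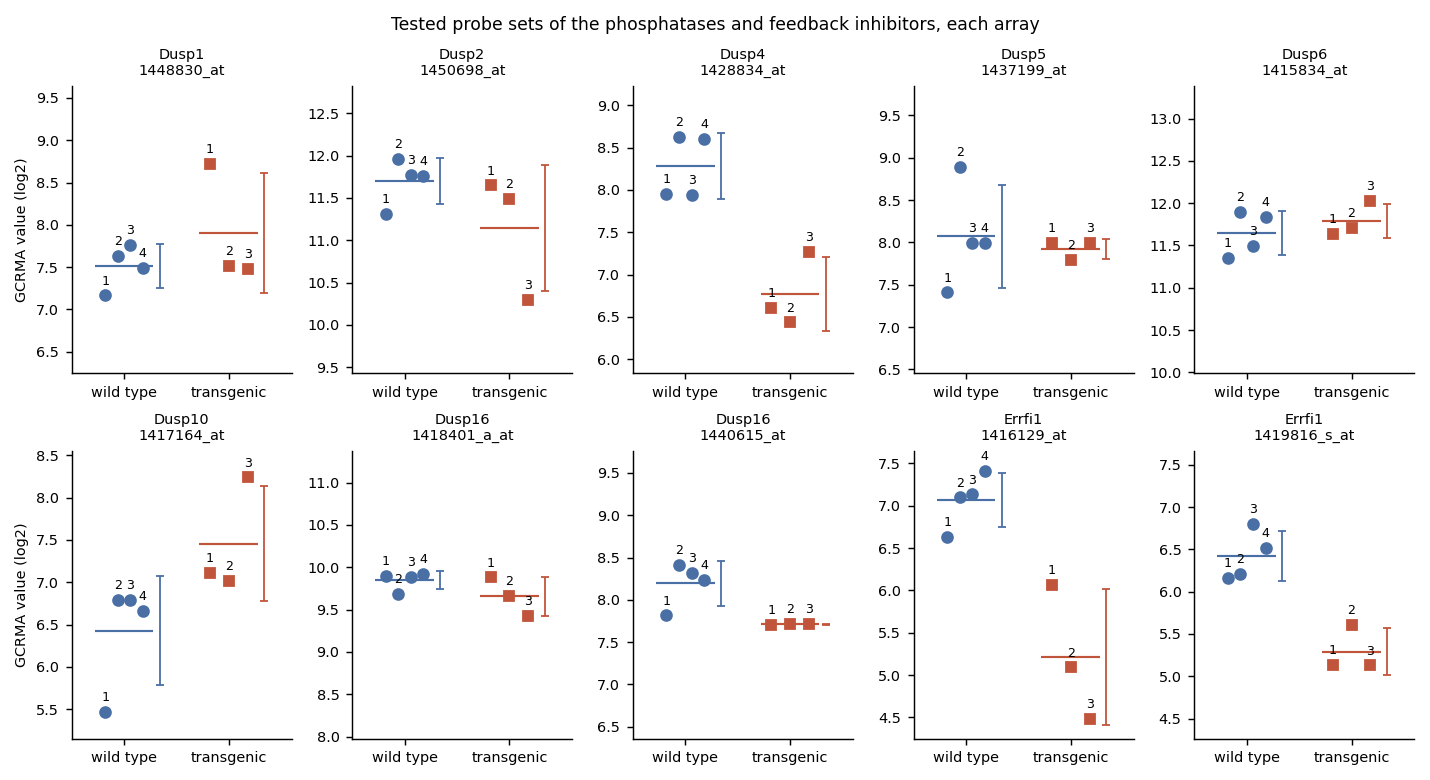
GCRMA values (log2, vertical axis) of the 10 tested probe sets on the wild-type arrays (blue circles) and the transgenic arrays (red squares), with the replicate number at each point, the group mean as a line and the SD as a bar. Each panel spans the same range of log2 units. Errfi1, Dusp4 and the Dusp16 probe set 1440615_at show no overlap, and Dusp10 lies above wild type on all 3 transgenic arrays.

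Errfi1 had the largest difference of the members. It encodes the feedback inhibitor of the EGF receptor family also known as MIG6 or RALT. Its brighter probe set (1416129_at) was at 6.63, 7.10, 7.13 and 7.41 on wild-type replicates 1 to 4 and at 6.07, 5.09 and 4.49 on transgenic replicates 1 to 3. The groups did not overlap, and the transgenic arrays were spread over a wider range than the wild-type arrays. The means were 7.07 ± 0.32 (SD, n = 4) and 5.21 ± 0.80 (SD, n = 3), a difference of -1.85 ± 0.38 (SE), or 3.61-fold lower. The second probe set (1419816_s_at) was at 6.17, 6.21, 6.80 and 6.52 in wild type and at 5.13, 5.61 and 5.13 in transgenic arrays. It did not overlap either, and its difference was smaller, at -1.13 ± 0.20 (SE). The order of the transgenic arrays differed between the probe sets: replicate 1 was the highest in the first and replicate 2 in the second. Leaving out 1 array at a time moved the first difference between -2.28 and -1.49.

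Of the receptors that ERRFI1 acts on, Egfr was above background on every array and did not differ detectably. It was at 5.68 to 6.06 in wild type and 5.67 to 6.08 in transgenic arrays, a difference of 0.02 ± 0.13 (SE, limma adjusted p = 0.926). Erbb3 lay around the background level, at 3.56 to 4.54 in wild type and 4.37 to 5.12 in transgenic arrays (0.61 ± 0.28 SE, limma adjusted p = 0.195). Erbb2 and Erbb4 were not above background on any array.

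The 5′ flanks of 3 members are shown because they hold matches to response elements, of which Errfi1 and Dusp1 share one. RefSeq promoter windows (GRCm38.p6) matched 9 of the 10 genes, with 2 windows for Errfi1 and none for Dusp4. The other Errfi1 window, at chr4:150853546-150853795, held no match. The 250 bases before each start were searched on both strands for TGACGTCA (the cAMP response element), TGANTCA (AP-1), the CArG box of serum response elements, GCGGGGGCG and GCGTGGGCG (EGR), TTCCTNGAA (BCL6) and CCGGAAGT (ETS). None of these motifs overlapped another in the members. The lines give Errfi1 at chr4:150854820-150855069 (plus strand), Dusp1 at chr17:26508473-26508722 (minus strand) and Dusp5 at chr19:53528895-53529144 (plus strand), 5′ to 3′, with matches in capitals.
Errfi1: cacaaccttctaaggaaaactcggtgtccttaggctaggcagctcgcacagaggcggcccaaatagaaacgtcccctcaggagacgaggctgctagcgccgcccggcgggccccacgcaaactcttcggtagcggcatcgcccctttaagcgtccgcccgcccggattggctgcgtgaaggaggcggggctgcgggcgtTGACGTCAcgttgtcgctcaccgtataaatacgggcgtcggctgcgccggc
Dusp1: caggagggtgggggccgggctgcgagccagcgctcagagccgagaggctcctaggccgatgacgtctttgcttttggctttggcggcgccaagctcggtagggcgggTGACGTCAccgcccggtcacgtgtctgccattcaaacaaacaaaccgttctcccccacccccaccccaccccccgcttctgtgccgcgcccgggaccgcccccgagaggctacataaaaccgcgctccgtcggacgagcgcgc
Dusp5: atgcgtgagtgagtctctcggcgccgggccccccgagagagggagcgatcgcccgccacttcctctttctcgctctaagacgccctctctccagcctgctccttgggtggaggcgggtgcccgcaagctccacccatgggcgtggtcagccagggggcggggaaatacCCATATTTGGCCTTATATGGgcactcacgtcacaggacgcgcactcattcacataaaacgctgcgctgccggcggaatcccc
The cAMP response element stood 51 bases before the start of Errfi1 and 143 bases before that of Dusp1. It was present in 1.55% of the 32851 promoter windows. Errfi1 was lower in all transgenic arrays and Dusp1 was not, and a link of these values to the element was not tested. Dusp5 had 2 CArG boxes side by side, 82 and 72 bases before its start, and 1.47% of windows held at least 1. Dusp2 had an EGR match, GCGGGGGCG, 98 bases before its start (2.57% of windows). The 10 windows had no match to GCGTGGGCG (0.536% of windows), AP-1 (6.75%), BCL6 (1.31%) or ETS (2.88%). Such matches describe the letters and not binding.

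Of the nuclear phosphatases, Dusp4 did not overlap between the groups. Dusp4, which acts on ERK and JNK in the nucleus, was at 7.95, 8.63, 7.94 and 8.60 on wild-type replicates 1 to 4 and at 6.60, 6.43 and 7.26 on transgenic replicates 1 to 3. The lowest wild-type array lay above the highest transgenic one. The means were 8.28 ± 0.39 (SD, n = 4) and 6.77 ± 0.44 (SD, n = 3), a difference of -1.51 ± 0.28 (SE), or 2.85-fold lower. It ranged from -1.76 to -1.35 with 1 array left out. Against the female wild-type replicates 1 and 2 alone it was -1.52, and that of Errfi1 was -1.65. Dusp4 was highest among the transgenic arrays on replicate 3, where Errfi1 (1416129_at) was lowest.

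The other nuclear phosphatases overlapped between the groups. Dusp1, an immediate early gene whose product prefers p38 and JNK, was at 7.17, 7.63, 7.77 and 7.49 in wild type and at 8.72, 7.51 and 7.48 in transgenic arrays. Transgenic replicate 1 stood above all others, and the other transgenic arrays lay within the wild-type range. The difference of 0.39 ± 0.33 (SE) was -0.02 without that array. Dusp2, the phosphatase PAC1 of activated lymphocytes, was at 11.31, 11.96, 11.78 and 11.76 in wild type and at 11.65, 11.49 and 10.30 in transgenic arrays. Here transgenic replicate 3 was low, and the difference of -0.56 ± 0.34 (SE) was -0.13 without it. Dusp5, which is selective for ERK, was at 7.41, 8.89, 7.99 and 7.99 in wild type and at 7.99, 7.79 and 7.99 in transgenic arrays. Its value was the same on 4 of the 7 arrays (7.99), and the difference of -0.15 ± 0.32 (SE) was 0.13 without wild-type replicate 2.

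Dusp6, the cytoplasmic phosphatase of ERK and a common readout of ERK activity, differed between the groups by less than its SE. It was at 11.35, 11.89, 11.49 and 11.84 in wild type and at 11.64, 11.71 and 12.02 in transgenic arrays. Transgenic replicate 3 was above every wild-type array and the other transgenic arrays were among them. The difference was 0.15 ± 0.16 (SE), and with 1 array left out it ran from 0.03 to 0.23.

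The phosphatases selective for JNK and p38 had differences of opposite sign. Dusp10, also known as MKP5, was at 5.46, 6.79, 6.79 and 6.66 in wild type and at 7.11, 7.02 and 8.24 in transgenic arrays (1417164_at). All transgenic arrays lay above wild type, with replicate 3 the highest. The means were 6.42 ± 0.64 (SD, n = 4) and 7.45 ± 0.68 (SD, n = 3), a difference of 1.03 ± 0.44 (SE), or 2.04-fold higher. It was 0.71 without wild-type replicate 1 and 0.64 without transgenic replicate 3. Dusp16, also known as MKP7, gave different pictures by probe set. Its brighter one (1418401_a_at) was at 9.89, 9.69, 9.89 and 9.92 in wild type and 9.88, 9.66 and 9.43 in transgenic arrays, with overlap and a difference of -0.19 ± 0.12 (SE). The other (1440615_at) was at 7.82, 8.41, 8.32 and 8.23 in wild type and at 7.71, 7.72 and 7.72 in transgenic arrays. It did not overlap, at -0.48 ± 0.14 (SE).

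**Figure D2:**
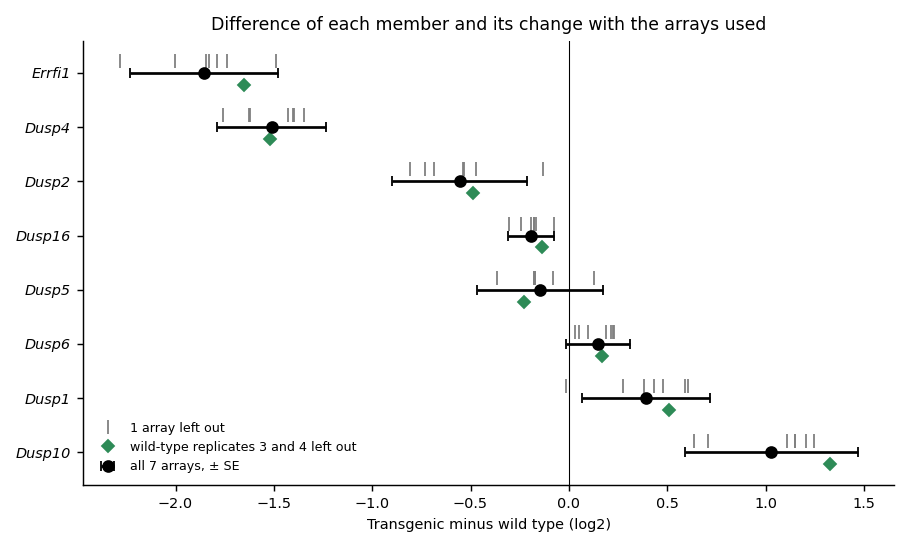
Transgenic minus wild-type difference (log2, horizontal axis) of the 8 tested genes, each by its brightest probe set. Black points are all 7 arrays with the limma SE, grey ticks leave out 1 array each and green diamonds leave out wild-type replicates 3 and 4. In these fits Errfi1 stays at -1.49 or below and Dusp4 at -1.35 or below, while Dusp1 and Dusp5 reach the other side of 0.

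Transgenic replicate 3 was the lowest transgenic array for 5 of the 10 probe sets and the highest for 3, close to its shares of 47.6% and 33.0% over all tested probe sets. Errfi1, Dusp2 and the brighter Dusp16 probe set had their lowest value of all arrays on it, and Dusp6 and Dusp10 their highest. Without it the difference of that Dusp16 probe set was -0.08. This array also had the lowest B cell mean (12.79, against 13.27 and 13.30 on the other transgenic arrays) and the highest means of T cell (7.53), natural killer cell (6.70), monocyte and macrophage (7.21), dendritic cell (7.14), erythroid (6.20), megakaryocyte and platelet (11.33), blood progenitor (6.38) and dividing cell markers (9.96). The granulocyte mean was instead highest on transgenic replicate 1 (8.63, against 7.39 on replicate 2 and 8.18 on replicate 3). The part of other cells in the member values was not tested. A further fit left out transgenic replicate 3 and wild-type replicate 4, on which granulocyte markers had the highest wild-type mean (3.54). There the difference was -1.38 for Errfi1, -1.65 for Dusp4, 0.72 for Dusp10 and -0.11 for Dusp2.

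Within the wild-type group the members shared a pattern, given as a description. Wild-type replicate 1 was the lowest of the 4 arrays for 8 of the 10 tested probe sets. Over all tested probe sets it was the lowest for 21.8%. The exceptions were Dusp4, where replicate 3 was lower (7.94 against 7.95), and the brighter Dusp16 probe set. Relative to the mean of the other 3 wild-type arrays, replicate 1 differed by a median of -0.48 over the 10 probe sets and 0.01 over all tested probe sets. The gap was largest for Dusp10 (-1.28), followed by Dusp5 (-0.88) and Errfi1 (-0.59, 1416129_at). Among the 18 tested transcription factors and response genes downstream of MAP kinases, replicate 1 was the lowest for 12, against 23.3% of all tested genes. These included Fos, at 3.61 against 4.83 to 5.34, and Ier2, at 10.56 against 10.79 to 11.69. Both were picked after their values were seen. The mean of 4 megakaryocyte and platelet markers was also lowest on replicate 1, at 6.80 against 8.63 to 9.07, as was that of monocyte and macrophage markers, at 3.89 against 4.12 to 5.26. Dividing cell markers had their highest wild-type mean there, at 6.89 against 5.48 to 6.24. Their part in the pattern was not tested.

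**Figure D3:**
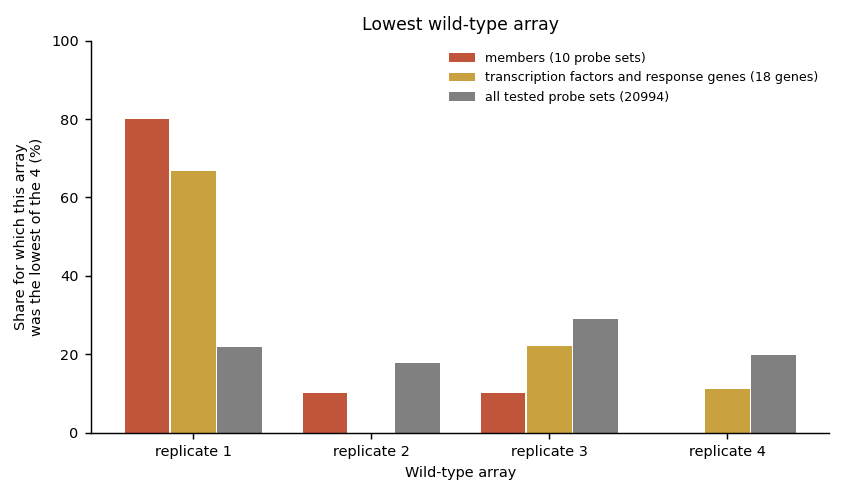
Share of features (%, vertical axis) for which each wild-type array was the lowest of the 4, for the 10 member probe sets (red), 18 transcription factors and response genes (yellow) and all 20994 tested probe sets (grey); ties count for no array. Replicate 1 was lowest for 80.0% of the member probe sets and 66.7% of the response genes.

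The rest of the MAP kinase pathway was examined through 133 genes in 9 lists made by family. Of these, 123 had a probe set naming that gene alone and 87 were tested. Among the 87, 2 rose, 7 fell and 78 did not pass (10.3% passed, against 10.7% of all tested genes; 8.05% fell, against 2.56%, and 2.30% rose, against 8.11%). The filter of more than 4 on at least 3 arrays can be met by the 3 transgenic arrays alone. A gene under background in wild type can then pass only as higher. All 6 tested granulocyte markers passed as higher. The part of such genes in the 8.11% was not tested. With each array centred on its median 4 pathway genes rose and 8 fell, and with quantile normalization 5 rose and 8 fell. With each gene as the median of its tested probe sets 6 rose and 5 fell. With 1 array left out, the share of lower genes among those that passed had its minimum at 33.3% (2 rose and 1 fell, without wild-type replicate 3 or 4). Its maximum was 70.0% (3 rose and 7 fell, without transgenic replicate 1). Over all tested genes this share ran from 8.05% (without transgenic replicate 2) to 25.8% (without wild-type replicate 3). With no filter on dim probe sets 2 pathway genes rose and 0 fell, against 13.8% lower among the calls over all genes. Lower genes thus did not outnumber higher ones in every setting, and the pathway counts are small. The median difference was -0.07. The groups did not overlap for 23 of them, or 26.4%, under the 29.9% of all tested genes. Of the 36 genes that were not tested, 32 were not above background on any array, and Spred1, Gab2, Rps6ka6 and Ier3 exceeded it on transgenic replicate 3.

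The 3 largest changes among the pathway genes that passed were in Mapk12, Mapkapk3 and Mapk11, which encode p38 gamma, a p38 substrate and p38 beta. Of 7 tested MAP kinases, 2 fell and 0 rose. Mapk12, which encodes p38 gamma, was at 9.81 to 9.92 on the wild-type arrays and at 8.66, 8.59 and 7.96 on transgenic replicates 1 to 3. It fell by 1.48 ± 0.17 (SE, limma adjusted p = 0.0101). Mapk11, which encodes p38 beta, was at 9.98, 10.28, 10.70 and 10.25 in wild type and 9.41, 9.42 and 8.89 in transgenic arrays, a difference of -1.06 ± 0.20 (SE, limma adjusted p = 0.0295). Another probe set of this gene differed by -1.28. Mapk14, encoding p38 alpha, differed by 0.41 ± 0.13 (SE) and did not pass (limma adjusted p = 0.0947). Of 7 kinases that MAP kinases activate, Mapkapk3, a p38 substrate, rose by 1.10 ± 0.10 (SE, limma adjusted p = 0.00611). It was at 8.35 to 8.58 in wild type and 9.39, 9.53 and 9.74 in transgenic arrays. Rps6ka5, encoding the nuclear kinase MSK1, fell (-0.94 ± 0.21 SE, limma adjusted p = 0.0445). The calls of Mapk12 and Mapkapk3 were kept with each array left out in turn, and were lost without wild-type replicates 3 and 4 together (limma adjusted p = 0.121 and 0.109), where the differences were of about the same size (-1.44 and 1.13) and no gene of the lists passed. With no filter on dim probe sets, Mapkapk3 and Pebp1 passed (limma adjusted p = 0.0312 and 0.0498) and the other 7 called genes did not (0.0510 to 0.146). Mapk11 lost its call when transgenic replicate 2 or 3 or wild-type replicate 2, 3 or 4 was left out (limma adjusted p 0.0524 to 0.0907), and Rps6ka5 without any one of the 7 arrays (0.05002 to 0.112). The other probe sets of Rps6ka5 did not pass (-0.66 and -0.97, limma adjusted p = 0.110 and 0.159), nor did the median of its probe sets (0.0818).

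Upstream of the kinases few genes passed. Of 18 MAP3K and MAP2K kinases 1 fell and 0 rose: Map3k8, encoding the ERK-pathway kinase TPL2, at -0.50 ± 0.10 (SE, limma adjusted p = 0.0351). Map2k3, an activator of p38, had higher values in all transgenic arrays (0.50 ± 0.12 SE) and lay at the threshold (limma adjusted p = 0.0513). Its other probe set passed (0.48, limma adjusted p = 0.0352), as did the median of its probe sets (0.0129). Of 11 Ras proteins, adaptors and exchange factors 0 passed with limma and 4 had an unadjusted p under 0.05. The nearest were Ptpn11, the phosphatase SHP2 (0.47, limma adjusted p = 0.0511), and Rasgrp1, a Ras exchange factor of lymphocytes (-0.34, adjusted p = 0.0938). Other probe sets of Rasgrp1 differed by -0.56 to -0.35 and did not pass (limma adjusted p 0.0502 to 0.136). Ptpn11 passed in 6 of 18 alternatives and Rasgrp1 in 2. Of 12 other Sprouty-related and Ras-inhibiting genes 1 rose and 1 fell. Pebp1, the RAF inhibitor RKIP, rose by 0.36 ± 0.05 (SE, limma adjusted p = 0.0151), and Rasa2, a Ras GTPase-activating protein, fell (-0.38 ± 0.06 SE, adjusted p = 0.0238). Spry3, Spry4 and Spred3 were not above background on any array. The call of Pebp1 was lost without wild-type replicate 2 or transgenic replicate 2 (0.0598 and 0.0734). That of Rasa2 was lost without any 1 wild-type array or transgenic replicate 2 (0.0591 to 0.0922), and that of Map3k8 without any 1 wild-type array or transgenic replicate 2 or 3 (limma adjusted p 0.0672 to 0.104).

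The other tested phosphatases of MAP kinases did not pass by their brightest probe sets. Of 18 further dual-specificity phosphatase genes 7 were tested, 0 passed with limma and 2 had an unadjusted p under 0.05, Dusp19 (0.42, adjusted p = 0.0944) and Dusp11 (-0.26, adjusted p = 0.150). The remaining 11 were not above background on any array. The other probe set of Dusp19 was higher on all transgenic arrays and did not pass (0.40, limma adjusted p = 0.121). The median of the Dusp19 probe sets passed (0.41, limma adjusted p = 0.0480). Of 5 tested serine/threonine phosphatases of MAP kinases 0 passed with limma and 0 had an unadjusted p under 0.05. Among them were Ppm1d (-0.23, limma adjusted p = 0.207) and Ppm1a (-0.06, limma adjusted p = 0.544). The tyrosine phosphatases Ptpn5 and Ptprr were not above background on any array and were not tested.

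Downstream, 2 of 18 tested transcription factors and response genes fell and 0 rose. Ets2, an ETS factor phosphorylated by ERK, was at 8.996 to 9.10 in wild type and 8.54, 8.07 and 7.80 in transgenic arrays, a difference of -0.93 ± 0.16 (SE, limma adjusted p = 0.0252). Elk4, a partner of serum response factor, fell by 0.26 ± 0.06 (SE, limma adjusted p = 0.0469). Its other probe set did not pass (-0.15, limma adjusted p = 0.365), and the call was lost with no intensity trend (0.0626) and with the median of its probe sets (0.0920). Both calls were lost without any 1 wild-type array or transgenic replicate 2, and that of Elk4 also without transgenic replicate 3 (limma adjusted p 0.0635 to 0.138). Egr1 and Fos, induced by ERK within minutes in many cells, did not pass (-0.04 and -0.07, limma adjusted p = 0.944 and 0.924). Egr1 was at 7.99 and 8.05 on transgenic replicates 1 and 2, below the wild-type arrays (8.11 to 8.56), and at 9.01 on replicate 3, above them. Fos lay close to background, at 3.61 to 5.34 in wild type and 4.22 to 4.88 in transgenic arrays. The groups did not overlap for 6 of the 18 genes, or 33.3%, against 29.9% of all tested genes.

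**Figure D4:**
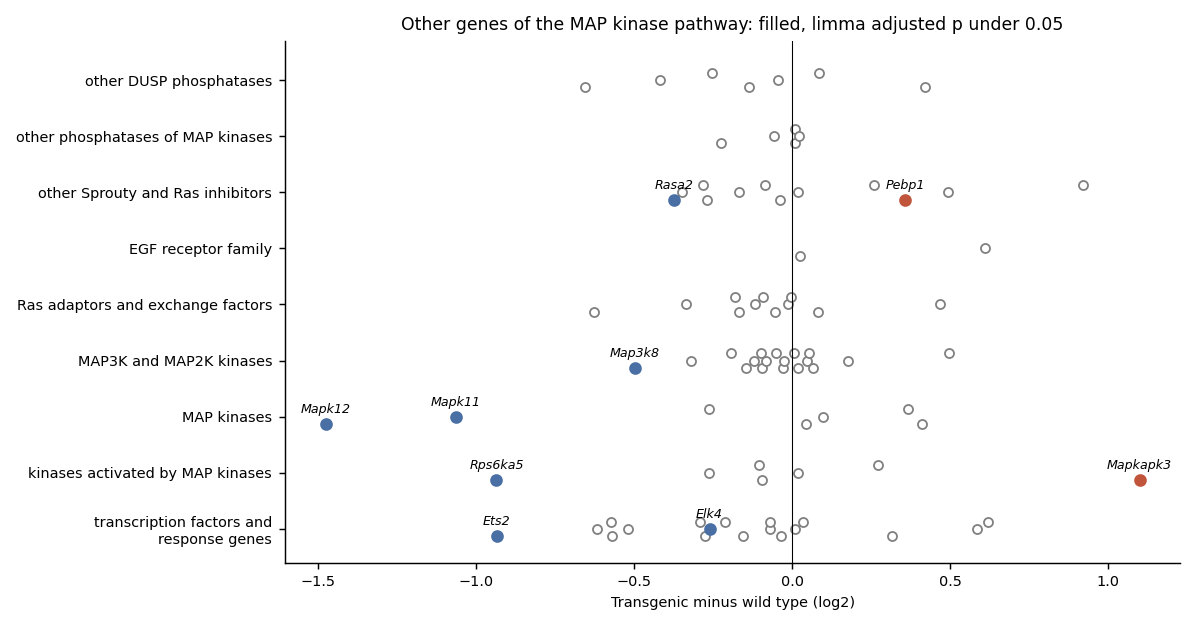
Transgenic minus wild-type difference (log2, horizontal axis) of 87 tested genes of the MAP kinase pathway in 9 lists; each point is a gene by its brightest probe set, and vertical offsets only separate points. Filled points passed an adjusted p under 0.05 in limma, red for the 2 higher and blue for the 7 lower genes.

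Over the 7 arrays, the profiles closest to Errfi1, each centred on its own wild-type mean, were those of Cpne4, Rbpms and L1cam, at root mean square distances of 0.35, 0.35 and 0.42 log2 units. Closest to Dusp4 were Marchf3, Ms4a4c and Neo1 (0.30, 0.35 and 0.35), and to Dusp10 were Cd9, Zyx and Ccdc88b (0.25, 0.25 and 0.28). With 7 arrays in 2 groups this likeness mostly reflects a similar difference between the groups, and it is a description only.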

How the data were processed

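RNA of splenic B cells was measured on 1 array per mouse. The authors deposited log2 values made with GCRMA (named in the submitters' processing notes, without a version). This method uses probe sequence to correct background, then quantile normalization and a summary over probes. It leaves dim probe sets at a common lowest value, so differences of dim genes are compressed. Scanner files and scan dates were not used here. Gene names come from the platform annotation, and only probe sets naming 1 gene are named.

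Probe sets above 4 on at least 3 of 7 arrays (20994 of 45101, 9517 genes) were tested with limma 3.58.1 in R 4.3.3 (lmFit, eBayes with intensity trend), with Benjamini-Hochberg adjustment over all of them and a threshold of 0.05. A gene stands for its probe set of highest mean. The number of arrays limits the precision. Each sample is taken as 1 mouse, following the series' design text.

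Members and lists were chosen with earlier results of these data known. Named are all members, up to 5 called genes of each pathway list by smallest p (the 2 of smallest p where fewer than 2 passed), and the 3 closest profiles of 3 members. Names outside this rule (Mapk14, Egr1, Fos, Ier2 and genes under background) were added after the values were seen. Alternatives changed the filter, normalization, variance model, weights, probe sets and arrays used.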

Additional observations from a re-analysis of the deposited data

Results flagged for a closer look

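Among 28 sets of 4 wild-type values examined for members and named pathway genes, 5 held a value far from the other 3. Chance marks about 1 in 20 independent sets. These sets share the same 4 arrays, so the count cannot be compared with that rate. Wild-type replicate 1 was low for Dusp10 (5.46, next value 6.66) and for Map2k3 (8.82, next 9.21), and high for Pebp1 (12.76, next 12.62). Wild-type replicate 2 was low for the brighter Dusp16 probe set (9.69, next 9.89). Wild-type replicate 4 was low for Ets2 (8.996, next 9.09), within a narrow range. The transgenic group of 3 arrays was not examined in this way.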

How the results depend on the processing

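The sign of Errfi1, Dusp4, Dusp2, Dusp10 and Dusp16 was kept in every alternative run. Dusp1 turned to -0.02 without transgenic replicate 1, Dusp5 to 0.13 without wild-type replicate 2 and Dusp6 to -0.02 with array weights. The count of called genes depended strongly on the setting. It was 1016 of all 9517 tested genes (10.7%) and 9 of 87 in the pathway lists. Among the members it was 2 of 8, beside the 10.7% of all tested genes. The member count is a description only, since the listing used this contrast, and nothing is read from it. With 1 array left out the count ran from 87 to 1074 over all genes, 2 to 10 in the lists and 0 to 1 among the members. With each gene as the median of its tested probe sets it was 1175, 11 and 3, the members being Dusp4, Dusp16 and Errfi1. With no filter it was 116, 2 and 0, and with array weights 2763, 21 and 2; the estimate of these weights stopped before it converged, so this setting is given as run. Without wild-type replicates 3 and 4 it was 12, 0 and 0, with 18 pathway genes at an unadjusted limma p under 0.05. Without transgenic replicate 3 and wild-type replicate 4, an alternative added after the data were seen, it was 408, 2 and 0. With a replicate block, and thus without wild-type replicate 4, it was 3, 0 and 0, with 20 pathway genes at an unadjusted limma p under 0.05. Deviations from the group means correlated at -0.04, -0.14 and -0.29 between arrays of the same number. Between arrays of unlike number they correlated at -0.17 to 0.26. Deviations within a group are tied to each other by the centring. These values therefore cannot show whether mice of the same number were handled together, and the labels give only a replicate number. The share of lower genes among pathway calls was 77.8%, against 24.0% among the calls over all tested genes. It was 66.7% with centred arrays and with array weights, 61.5% with quantile normalization, 45.5% with the median of all tested probe sets, 33.3% to 70.0% with 1 array left out and 0% with no filter. The second probe set of Dusp10 gave no alternative value, since it was not above background. Over all alternatives the limma adjusted p ran from 4.97e-04 to 0.148 for Mapk12, from 5.83e-04 to 0.132 for Mapkapk3 and from 0.00309 to 0.164 for Ets2, each lowest with array weights. Where a setting drops arrays, fewer samples enter the fit; other causes were not tested.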
